A study of Mus musculus with 15 samples.

Results

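The 10 genes described here build the MHC class I antigen presentation pathway. They were taken by name from a fixed list (H2-D1, H2-K1, B2m, Tap1, Tap2, Tapbp, Psmb8, Psmb9, Psmb10 and Nlrc5) out of 35675 genes with a transcript in the kallisto output. All 10 were among the 19331 genes that passed the filter on low counts.

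Class I molecules show peptides from inside the cell to cytotoxic T cells. The proteasome cuts proteins into peptides, the Tap1 and Tap2 transporter carries them into the endoplasmic reticulum, and tapasin (Tapbp) holds the transporter beside the empty class I molecule, which is a heavy chain (H2-K1 or H2-D1 in the mouse) paired with the light chain beta-2-microglobulin (B2m). Psmb8, Psmb9 and Psmb10 are catalytic subunits of the immunoproteasome and take the places of Psmb5, Psmb6 and Psmb7. Nlrc5 is a transactivator of class I genes. Interferons, whose signal passes through JAK kinases to transcription factors such as Stat2 and Irf9, are the best known inducers of the pathway, and fibroblasts and muscle cells hold it at a low level until they are induced.

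Bulk RNA-seq libraries were made from 15 cultures, 3 lines of mouse embryonic fibroblasts (MEFs) in each of 5 conditions. All lines carried the Pax7-nGFP transgene on a mixed C57BL6 and DBA2 background (Tg:Pax7-nGFP/C57BL6;DBA2), and each line came from a single embryo. The conditions were +MyoD+F/R/C+CP, +MyoD+F/R/C+SP, +MyoD+F/R/C, +MyoD and untreated MEFs. The 4 transfected conditions received synthetic mRNA of the muscle transcription factor MyoD in 4 transfections, in a medium for induced myogenic progenitor cells (iMPC medium) with B18R, a viral decoy receptor that binds type I interferon. Per the methods, B18R was withdrawn soon after transfections ended, and for MEFs the labels give iMPC medium alone. F/R/C stands for forskolin, which raises cAMP, RepSox, which blocks the TGF-β receptor, and CHIR99210, which blocks GSK3. SP is the JNK inhibitor SP600125 and CP is the JAK inhibitor CP690550. The labels give day 10 for all 15 cultures, whereas the deposited names mark the MEFs as day 0, so time in culture, transfection and B18R cannot be told apart in a comparison with MEFs.

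Library totals of estimated counts ran between 29393872 and 41885769, and no pair of replicates held the same library. TPM is corrected for transcript length and was used to compare genes, and for sums, ratios and some levels across conditions. CPM is scaled by normalized library size (TMM), without length, and was used for the other levels across libraries. The 6 fibroblast markers summed to between 4520 and 12200 TPM in the transfected cultures, against 1190 to 1510 TPM in MEFs, and the 6 skeletal muscle markers to between 915 and 5460 TPM, against 39.1 to 59.7 TPM in MEFs. The 5 satellite cell markers summed to between 5.91 and 174 TPM in the transfected cultures, against 0.66 to 0.906 TPM in MEFs. The sum of the 4 epithelial markers went the other way, with 16.8 to 53.2 TPM in the transfected cultures, against 84.1 to 104 TPM in MEFs. Most of it was Krt18 and Krt8. Epcam and Cdh1 averaged higher with CP (3.49 and 1.30 TPM) and lower in +MyoD (0.0416 and 0.0678 TPM) than in MEFs (0.381 and 0.217 TPM). The 4 endothelial markers stayed low, with 0.785 to 6.06 TPM, against 1.71 to 3.21 TPM in MEFs. The part of these cell types in the class I values was not tested. In bulk RNA, fewer cells of a type and less RNA per cell cannot be told apart. The 8 leukocyte markers, cells that are rich in class I molecules, summed to between 13.3 and 32.5 TPM in the transfected cultures, against 20.8 to 32.2 TPM in MEFs, and Ptprc, which defines leukocytes, stayed at or under 0.374 TPM in every library.

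Of the 10 genes, 7 lie on chromosome 17 in the MHC region (GRCm38), B2m lies on chromosome 2, and Psmb10 and Nlrc5 lie on chromosome 8. Tap1 (17:34187553-34197225) and Psmb9 (17:34181987-34187764) run in opposite directions and overlap by 212 bases, and Psmb8 (17:34197721-34201454) and Tap2 (17:34203527-34216321) follow on the strand of Tap1. H2-K1 (17:33996017-34000347) and Tapbp (17:33915899-33929292) stand on one side of this cluster and H2-D1 (17:35262730-35267499) on the other. The windows from 250 bases before to 50 bases after the annotated start of 8 of the 10 genes were found in RefSeq (GRCm38.p6). They are shown for 5 members because the 2 heavy chains and B2m shared elements that Psmb8 did not hold, and because Tap1 and Psmb9 read the same stretch from both sides. The capitals mark every match, on either strand, to the interferon element GAAANNGAAA (ISRE), the STAT element TTCNNNGAA (GAS), the 10-base NF-kB consensus, the core TGACG of the X2 element and the Y element CCAAT, the last 2 being parts of the enhanceosome on which Nlrc5 assembles.
H2-K1, chr17:34000284-34000583, minus strand: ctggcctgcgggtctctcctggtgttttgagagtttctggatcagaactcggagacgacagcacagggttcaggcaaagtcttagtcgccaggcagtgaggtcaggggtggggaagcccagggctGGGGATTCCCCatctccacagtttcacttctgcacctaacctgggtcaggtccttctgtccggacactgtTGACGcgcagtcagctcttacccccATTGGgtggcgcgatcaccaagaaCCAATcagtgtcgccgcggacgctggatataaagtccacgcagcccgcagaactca
H2-D1, chr17:35262844-35263143, plus strand: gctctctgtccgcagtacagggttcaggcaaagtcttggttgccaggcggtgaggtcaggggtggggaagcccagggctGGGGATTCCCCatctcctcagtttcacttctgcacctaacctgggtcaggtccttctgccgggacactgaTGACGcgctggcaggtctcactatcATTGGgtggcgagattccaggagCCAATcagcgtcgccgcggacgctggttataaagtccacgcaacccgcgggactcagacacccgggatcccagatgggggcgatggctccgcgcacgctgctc
B2m, chr2:122147437-122147736, plus strand: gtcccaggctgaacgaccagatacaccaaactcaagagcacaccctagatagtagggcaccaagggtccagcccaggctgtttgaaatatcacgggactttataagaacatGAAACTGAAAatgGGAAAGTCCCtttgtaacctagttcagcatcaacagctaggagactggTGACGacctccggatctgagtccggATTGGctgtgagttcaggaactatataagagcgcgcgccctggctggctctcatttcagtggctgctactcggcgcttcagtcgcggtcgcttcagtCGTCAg
Tap1, chr17:34187306-34187605, plus strand: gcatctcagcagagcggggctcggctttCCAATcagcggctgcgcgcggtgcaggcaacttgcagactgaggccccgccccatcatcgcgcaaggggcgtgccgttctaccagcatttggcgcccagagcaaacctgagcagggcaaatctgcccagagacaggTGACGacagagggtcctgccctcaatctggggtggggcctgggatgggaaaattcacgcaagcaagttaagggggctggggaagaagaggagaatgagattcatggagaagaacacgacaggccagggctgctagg
Psmb8, chr17:34197945-34198244, plus strand: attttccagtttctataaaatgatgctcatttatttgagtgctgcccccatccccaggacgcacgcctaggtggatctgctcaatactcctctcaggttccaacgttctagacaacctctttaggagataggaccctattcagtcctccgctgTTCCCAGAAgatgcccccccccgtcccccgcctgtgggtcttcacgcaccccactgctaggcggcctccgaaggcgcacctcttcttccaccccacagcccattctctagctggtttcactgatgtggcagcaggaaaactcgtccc

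The H2-K1 and H2-D1 windows held the same order of elements, 2 overlapping NF-kB matches, 1 X2 match and a pair of Y matches on opposite strands. A second annotated start of H2-K1 gave the same elements. B2m held NF-kB, X2 and Y matches and, at base -139 from the start, the only match to the exact ISRE string in the 9 windows read for the 8 genes. Psmb8 held the only GAS match, at base -97. The X2 match of Tap1, at base -86, and its Y match, at base -222, are the same bases that give Psmb9 its matches on the other strand. Tapbp held 2 Y matches and Psmb10 held no match. Among 32851 RefSeq windows of the same 300 bases, 3.44% held an ISRE match, 8.3% a GAS match, 8.46% an NF-kB match, 20.8% an X2 match and 37.4% a Y match. These counts are of letters, and no binding was measured. Variants of the strings were not searched, so a window without a match, as those of H2-K1 and H2-D1 for the ISRE, can still hold such an element.

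**Figure D1:**
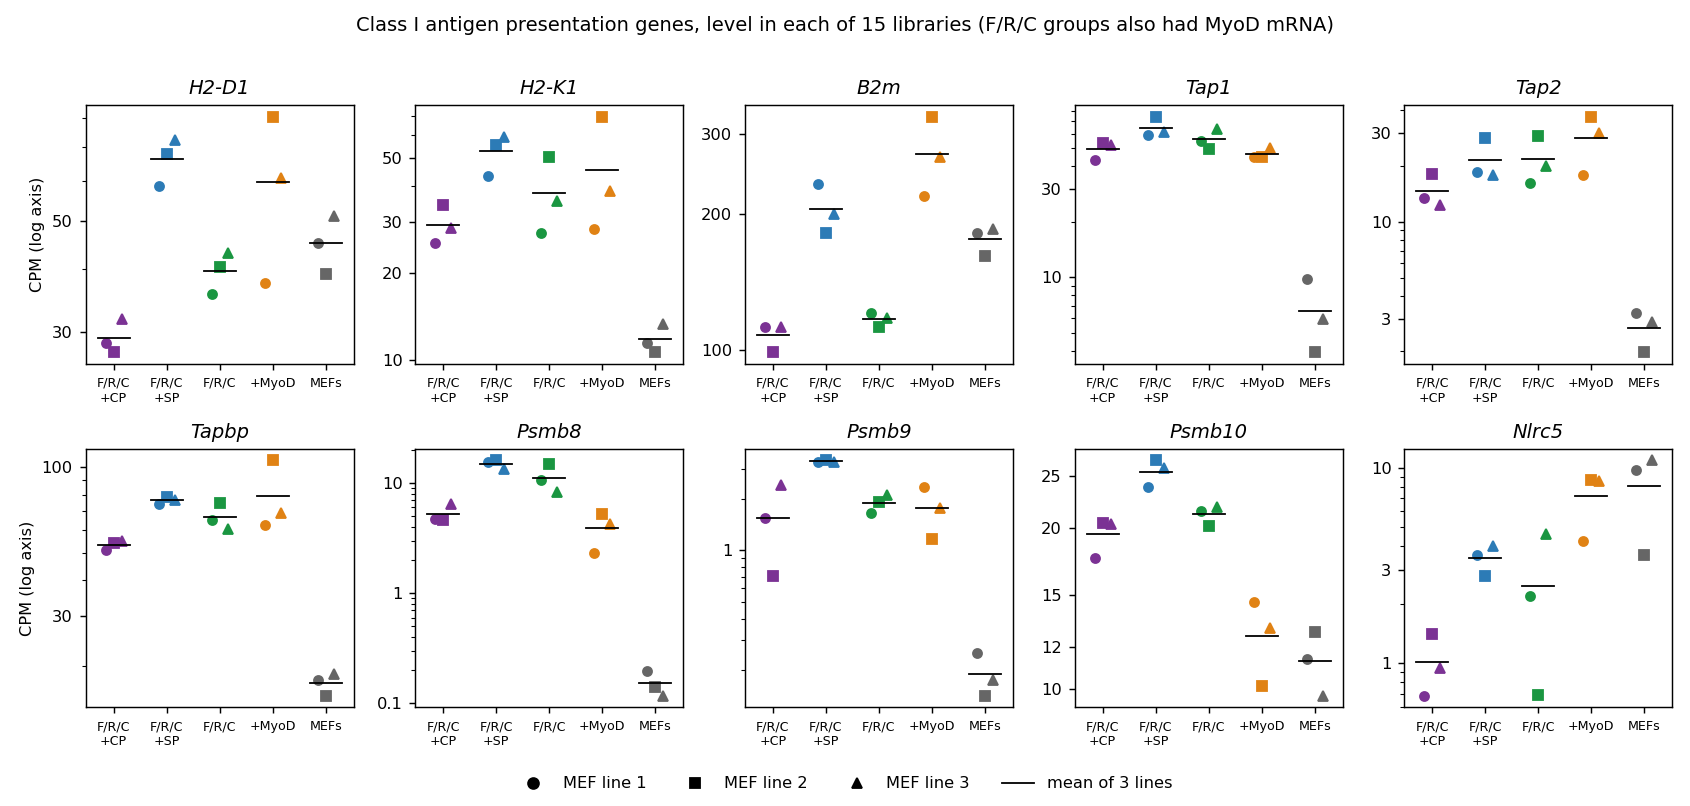
Library-scaled counts (CPM, log axis) of the 10 genes in each of the 15 libraries, with 1 panel per gene, the 5 conditions from left to right, 1 symbol per MEF line and a bar at the mean of the 3 lines. Tap1, Tap2, Tapbp, H2-K1, Psmb8 and Psmb9 were higher in every transfected library than in every MEF library, whereas B2m and H2-D1 reached their lowest levels in +MyoD+F/R/C+CP.

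Per length, the light chain was by far the most abundant member. B2m averaged 293 ± 19.1 TPM in +MyoD+F/R/C+CP, 599 ± 148 TPM in +MyoD+F/R/C+SP, 323 ± 15.6 TPM in +MyoD+F/R/C, 723 ± 116 TPM in +MyoD and 417 ± 40.4 TPM in MEFs (SD, n = 3 each). In MEFs the 2 heavy chains lay a long way below B2m, H2-D1 with 38.1 ± 4.93 TPM and H2-K1 with 19.4 ± 6.41 TPM (SD, n = 3). The values of B2m, H2-D1 and H2-K1 did not overlap. Psmb10, over all its transcripts, averaged 41.4 ± 8.54 TPM in MEFs (SD, n = 3), above both heavy chains. Most of this did not come from its protein-coding transcript. The sum of H2-K1 and H2-D1 in TPM came to 29.6 ± 4.08% of B2m in +MyoD+F/R/C+CP, 29.3 ± 11.1% in +MyoD+F/R/C+SP, 37.3 ± 12.6% in +MyoD+F/R/C, 17.4 ± 3.49% in +MyoD and 13.8 ± 1.81% in MEFs (SD, n = 3 each). Over all transcripts, the heavy chain share was above every MEF value (12.4 to 15.8%) in all 9 libraries with F/R/C. With protein-coding transcripts alone, the SP culture of line 1 did not lie above the MEFs. These transcripts gave it 36.9 TPM of H2-K1 and 47.3 TPM of H2-D1, beside 769 TPM of B2m. In the MEF culture of line 1 they gave 11.3 and 39.6 TPM, beside 445 TPM of B2m.

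The first question was what transfection of MyoD mRNA did to the pathway. In +MyoD, 7 of the 10 genes rose over MEFs and none fell. The peptide transporter, its tapasin bridge, H2-K1 and 2 immunoproteasome subunits rose between 3.85-fold and 25.4-fold, B2m rose 1.54-fold, and H2-D1, Psmb10 and Nlrc5 did not pass the test. Of all 19331 genes tested, 22.8% were called higher and 18.0% lower in this comparison. A gene was called at an adjusted p of at most 0.05 (edgeR's quasi-likelihood test, Benjamini-Hochberg) and a log2 fold change over 0.5 in size. The median log2 fold change of the 10 genes was 2.06, beside 0.12 over all genes tested.

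Psmb8 changed most. It had 2.32, 5.24 and 4.24 CPM in +MyoD, against 0.195, 0.142 and 0.117 CPM in MEFs, where these values rest on 7, 5 and 4 reads. The groups stood far apart, with a log2 fold change of 4.67 (SE 0.39, adjusted p = 2.6e-07), and the exact size depends on the few MEF reads. Psmb9 had 2.35, 1.16 and 1.78 CPM in +MyoD, against 0.250, 0.142 and 0.176 CPM in MEFs (9.17-fold, adjusted p = 9.1e-05). Its MEF values rest on 9, 5 and 6 reads.

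The transporter subunits moved with them. Tap1 had 44.9, 44.8 and 50.5 CPM in +MyoD, against 9.82, 3.94 and 5.97 CPM in MEFs (log2 fold change 2.83, SE 0.25, adjusted p = 3.4e-07). Tap2 had 17.9, 36.7 and 30.1 CPM in +MyoD, against 3.23, 1.98 and 2.87 CPM in MEFs (log2 fold change 3.39, SE 0.32, adjusted p = 7.9e-07). In both genes the lowest +MyoD culture was far above the highest MEF culture. Tapbp had 62.4, 105 and 68.8 CPM in +MyoD, against 18.0, 15.8 and 18.9 CPM in MEFs (log2 fold change 2.17, SE 0.17, adjusted p = 1.3e-07).

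The chains of the class I molecule itself changed less, and not alike. H2-K1 had 28.4, 69.5 and 38.5 CPM in +MyoD, against 11.5, 10.7 and 13.3 CPM in MEFs (log2 fold change 1.94, SE 0.29, adjusted p = 5.4e-05). B2m had 219, 327 and 267 CPM in +MyoD, against 181, 162 and 186 CPM in MEFs (log2 fold change 0.62, SE 0.14, adjusted p = 0.0020). Both genes separated the groups in every line. H2-D1 had 37.6, 80.5 and 60.9 CPM in +MyoD, against 45.2, 39.1 and 51.0 CPM in MEFs, so that line 1 went down and lines 2 and 3 went up (log2 fold change 0.40, 95% interval -0.05 to 0.86, adjusted p = 0.13). Line 2 gave the highest +MyoD value of H2-K1, H2-D1, B2m, Tap2, Tapbp and Psmb8, and it also gave the highest value of the fibroblast collagen Col1a1 (5792 TPM in line 2, against 1699 and 1964 TPM in lines 1 and 3). Without this library B2m had a log2 fold change of 0.46 (adjusted p = 0.013), under the size threshold. Without the +MyoD culture of line 1, H2-D1 was called higher (0.64, adjusted p = 0.0034).

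Nlrc5, the transactivator, did not move with the other members. It had 4.23, 8.67 and 8.52 CPM in +MyoD, against 9.76, 3.60 and 10.9 CPM in MEFs (log2 fold change -0.18, 95% interval -1.39 to 1.03, adjusted p = 0.83). The lines disagreed, since line 2 was higher in +MyoD and lines 1 and 3 were lower.

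Adding F/R/C to MyoD moved few of the members. In +MyoD+F/R/C, 2 of the 10 genes rose over +MyoD (Psmb8 and Psmb10) and 1 fell (B2m), beside 10.9% of all genes called higher and 8.39% called lower, so that both counts were near the share over all genes. Over the same comparison, 2 of the 7 leukocyte markers tested fell, Csf1r and Lyz2 (log2 fold changes -2.42 and -1.53, adjusted p = 0.0056 and 0.047), and none was called higher. In mean CPM Ptprc and Adgre1 were also lower, while Itgam (1.62 against 0.698), Cd68 (4.88 against 4.67), Cd3e and Cd79a were higher. The part of leukocytes in the B2m value was not tested. The median of the 10 genes was -0.25, beside 0.03 over all genes tested. B2m had 121, 112 and 118 CPM in +MyoD+F/R/C, against 219, 327 and 267 CPM in +MyoD (log2 fold change -1.21, SE 0.14, adjusted p = 3.2e-05). Psmb8 rose further, to 10.6, 14.7 and 8.23 CPM in +MyoD+F/R/C, against 2.32, 5.24 and 4.24 CPM in +MyoD (log2 fold change 1.51, SE 0.31, adjusted p = 0.0023). Neither gene overlapped between the conditions. Psmb10 had 21.6, 20.2 and 21.9 CPM in +MyoD+F/R/C, against 14.5, 10.1 and 12.99 CPM in +MyoD (log2 fold change 0.76, SE 0.16, adjusted p = 0.0032), and it was not called with length-scaled counts (0.38, adjusted p = 0.24).

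The other members gave no call here. H2-D1 was lower in all 3 lines, with 35.7, 40.4 and 43.1 CPM in +MyoD+F/R/C (log2 fold change -0.59, adjusted p = 0.054), and a fit blocked on the line called it lower (-0.57, adjusted p = 0.040), as did DESeq2 (adjusted p = 0.044) and edgeR without the +MyoD culture of line 1 (-0.83, adjusted p = 0.0016). Nlrc5 was likewise lower in all 3 lines, with 2.20, 0.694 and 4.59 CPM in +MyoD+F/R/C (log2 fold change -1.51, adjusted p = 0.067), and was called lower with the block (-1.68, adjusted p = 0.038), by DESeq2 (adjusted p = 0.032), and without the +MyoD culture of line 1 (-1.78, adjusted p = 0.043) or the +MyoD+F/R/C culture of line 3 (-2.28, adjusted p = 0.016). H2-K1, Tap1, Tap2, Tapbp and Psmb9 had log2 fold changes between -0.38 and 0.26 with adjusted p-values between 0.35 and 0.91.

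Set against MEFs, most members rose in the cultures with F/R/C. In +MyoD+F/R/C, 7 of the 10 genes rose and 2 fell, beside 26.6% of all genes called higher and 21.6% called lower (median of the 10 genes 1.81, of all genes tested 0.19). In +MyoD+F/R/C+CP, 7 rose and 3 fell, beside 24.9% called higher and 20.6% called lower (median 1.46, of all genes 0.14). The counts of members that fell were not far from the shares over all genes. These comparisons and that of +MyoD share the MEF libraries. Psmb8 was 33.8-fold higher in +MyoD+F/R/C+CP and 72.2-fold higher in +MyoD+F/R/C than in MEFs (log2 fold changes 5.08 and 6.17, SE 0.40 and 0.41). Psmb9 was 8.09-fold and 9.86-fold higher in the same 2 comparisons, Tap1 7.51-fold and 8.48-fold, Tap2 5.41-fold and 8.04-fold, Tapbp 3.05-fold and 3.81-fold, and H2-K1 2.5-fold and 3.21-fold.

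Against these rises stood B2m, H2-D1 and Nlrc5. This does not extend to SP for B2m and H2-D1, which averaged 204.5 and 66.3 CPM with SP, against 176.1 and 45.1 CPM in MEFs. Nlrc5 averaged 3.47 CPM with SP, against 8.08 CPM in MEFs. B2m had 112.5, 98.9 and 112 CPM in +MyoD+F/R/C+CP and 121, 112 and 118 CPM in +MyoD+F/R/C, against 181, 162 and 186 CPM in MEFs, with no overlap. Its log2 fold changes over MEFs were -0.71 (SE 0.14, adjusted p = 6.5e-04) with CP and -0.59 (SE 0.14, adjusted p = 0.0023) without an inhibitor. H2-D1 had 28.5, 27.3 and 31.9 CPM in +MyoD+F/R/C+CP, against 45.2, 39.1 and 51.0 CPM in MEFs (log2 fold change -0.63, SE 0.21, adjusted p = 0.020), and in +MyoD+F/R/C it was not called (-0.18, 95% interval -0.64 to 0.28). Nlrc5 had 0.684, 1.42 and 0.951 CPM in +MyoD+F/R/C+CP, against 9.76, 3.60 and 10.9 CPM in MEFs (0.126-fold, log2 fold change -2.99, SE 0.60, adjusted p = 6.4e-04). In +MyoD+F/R/C the fall of Nlrc5 (log2 fold change -1.69, SE 0.56, adjusted p = 0.019) came with overlapping groups, and leaving out MEF line 1 or 3 or the +MyoD+F/R/C culture of line 1 or 2 ended the call (adjusted p between 0.057 and 0.075). The H2-D1 call with CP was lost without the CP culture of line 2 or the MEF culture of line 3 (adjusted p = 0.054 and 0.079).

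**Figure D2:**
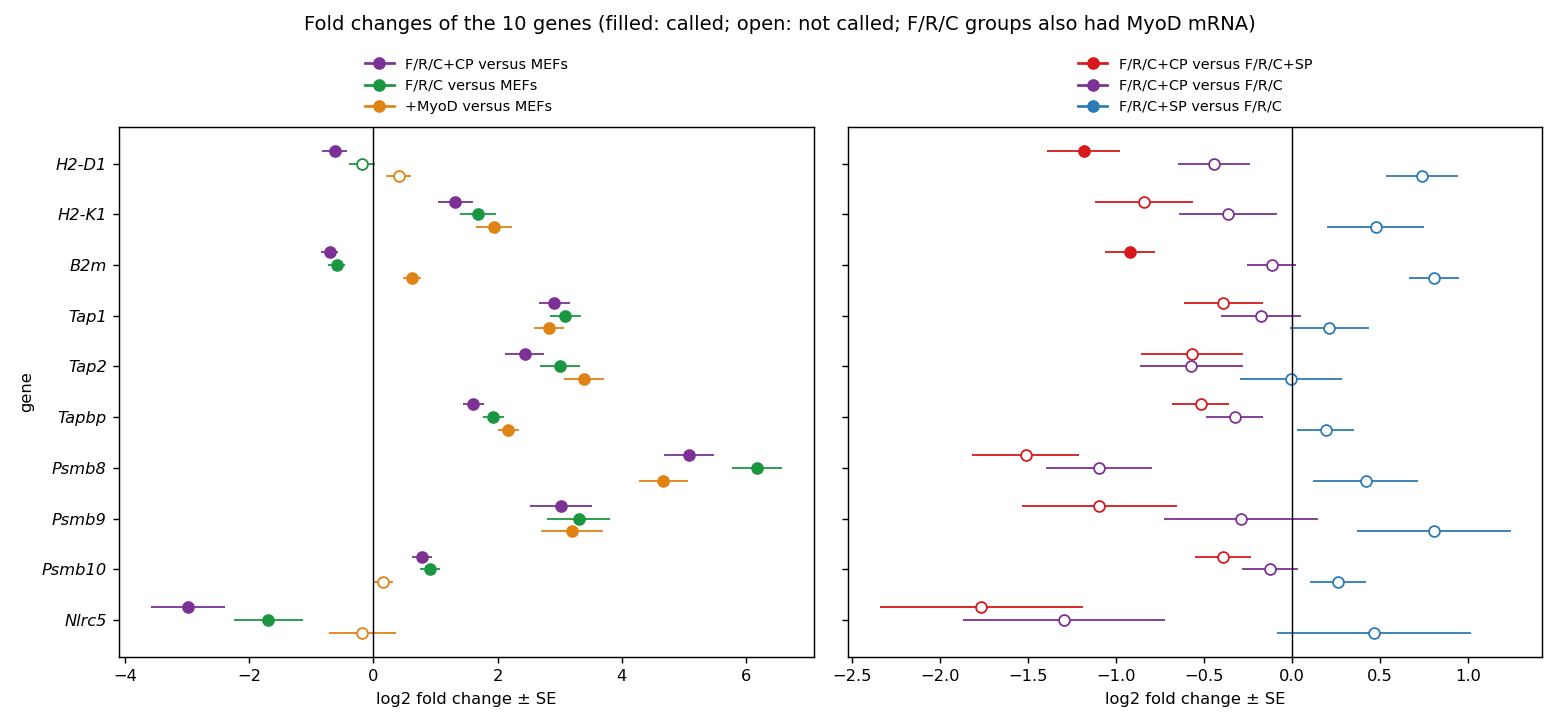
Log2 fold changes with their standard errors (bars) for the 10 genes, over MEFs in the left panel and between the F/R/C conditions in the right panel, where filled points passed the call and open points did not. On the left, B2m lay below 0 with CP and with F/R/C alone and above 0 in +MyoD, while Psmb8 stood between 4.67 and 6.17, and on the right all 10 points of CP versus SP lay below 0.

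The 2 inhibitors were then compared with F/R/C alone. With SP, no member was called (0 of 10 in either direction), beside 0% of all 19331 genes in edgeR, where 1280 genes, 2 of them members, had an unadjusted p under 0.05. DESeq2 called 47 genes higher and 19 lower with SP. B2m was higher in all 3 lines without overlap, with 233, 181 and 200 CPM in +MyoD+F/R/C+SP, against 121, 112 and 118 CPM in +MyoD+F/R/C (log2 fold change 0.81, SE 0.14, 95% interval 0.49 to 1.12, adjusted p = 0.35). DESeq2 called it (adjusted p = 2.1e-04), and so did edgeR on the 9 libraries with F/R/C alone (adjusted p = 0.031). H2-D1 also lay higher without overlap, with 58.6, 67.8 and 72.5 CPM in +MyoD+F/R/C+SP, against 35.7, 40.4 and 43.1 CPM in +MyoD+F/R/C (log2 fold change 0.74, SE 0.21, adjusted p = 0.61). The other 8 members had log2 fold changes between -0.00 and 0.81. Among them, Psmb9 and Psmb10 were also higher in all 3 lines without overlap (0.808 and 0.265, adjusted p = 0.76 and 0.78 in edgeR). The share of all genes without overlap was not counted for this comparison.

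With CP, no member was called either (0 of 10), beside 0% of all genes called higher and 0.0362% called lower in edgeR. Of the members, 3 had an unadjusted p under 0.05, as had 1529 of all genes, and DESeq2 called 71 genes higher and 124 lower. Psmb8 was lower in every line, with 4.67, 4.58 and 6.46 CPM in +MyoD+F/R/C+CP, against 10.6, 14.7 and 8.23 CPM in +MyoD+F/R/C. Its log2 fold change was -1.09 (SE 0.30, 95% interval -1.76 to -0.43) with an adjusted p of 0.27 in edgeR and 0.040 in DESeq2. All 10 log2 fold changes of the members were below 0, between -0.12 and -1.30, with a median of -0.34 beside 0 over all genes tested. With length-scaled counts Psmb9 and Psmb10 lay just above 0, as did the protein-coding transcripts of Tap2. The B2m interval ran between -0.43 and 0.20.

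The direct comparison of the inhibitors set the members furthest apart within the F/R/C cultures. In +MyoD+F/R/C+CP against +MyoD+F/R/C+SP, 2 of the 10 genes were called lower (H2-D1 and B2m) and none higher, beside 0.197% of all genes called lower and 0% called higher. All 10 had a log2 fold change below 0 in all 3 lines, and 9 of 10 did not overlap between the groups, Tap2 being the exception, beside 6.31% of all genes that were lower with CP without overlap. The median was -0.88, beside 0.00 over all genes tested.

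H2-D1 had 28.5, 27.3 and 31.9 CPM with CP, against 58.6, 67.8 and 72.5 CPM with SP (log2 fold change -1.18, SE 0.21, adjusted p = 0.028). B2m had 112.5, 98.9 and 112 CPM with CP, against 233, 181 and 200 CPM with SP (log2 fold change -0.92, SE 0.14, adjusted p = 0.010). The libraries of the 2 conditions stood well apart for both genes. The call rested on all libraries, however. Leaving out any of the 6 libraries ended it for H2-D1 (adjusted p between 0.064 and 0.24), and leaving out the SP culture of line 1 or any CP culture ended it for B2m (adjusted p between 0.052 and 0.10), while the log2 fold changes stayed between -1.26 and -0.81. Psmb8 had 4.67, 4.58 and 6.46 CPM with CP, against 15.5, 16.0 and 13.3 CPM with SP (log2 fold change -1.51, SE 0.30, adjusted p = 0.076). DESeq2 (adjusted p = 5e-04), edgeR without a filter (0.042) and edgeR on the 6 libraries alone (0.018) called it, and the fit on its protein-coding transcripts did not (-1.49, adjusted p = 0.80). Nlrc5 had 0.684, 1.42 and 0.951 CPM with CP, against 3.60, 2.81 and 4.00 CPM with SP (log2 fold change -1.76, SE 0.58, adjusted p = 0.84).

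Psmb10 needed a closer look, because most of its signal did not come from its protein-coding transcript. Other members, among them Tap2 and H2-K1, shared this in part. Protein-coding transcripts held 20.0 to 65.0% of the TPM of Tap2 and 41.4 to 72.5% of that of H2-K1. The calls of Tap2 and H2-K1 over MEFs stayed with protein-coding transcripts alone. Of the 7 annotated transcripts of Psmb10, 1 is protein-coding, and the other 6 are retained introns and a processed transcript. The protein-coding transcript held 26.9 to 33.4% of the gene's TPM in +MyoD+F/R/C+CP, 29.5 to 51.9% in +MyoD+F/R/C+SP, 27.7 to 38.8% in +MyoD+F/R/C, 12.6 to 18.6% in +MyoD and 4.5 to 9.5% in MEFs. In TPM the protein-coding transcript averaged 17.6 ± 3.40 with CP, 22.5 ± 1.90 with SP, 19.9 ± 3.86 in +MyoD+F/R/C, 6.57 ± 2.03 in +MyoD and 2.85 ± 0.774 in MEFs (SD, n = 3 each). The other 6 transcripts together averaged 40.03 ± 3.81 TPM with CP, 37.4 ± 13.6 TPM with SP, 38.1 ± 2.51 TPM in +MyoD+F/R/C, 35.7 ± 6.32 TPM in +MyoD and 38.5 ± 8.60 TPM in MEFs.

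**Figure D3:**
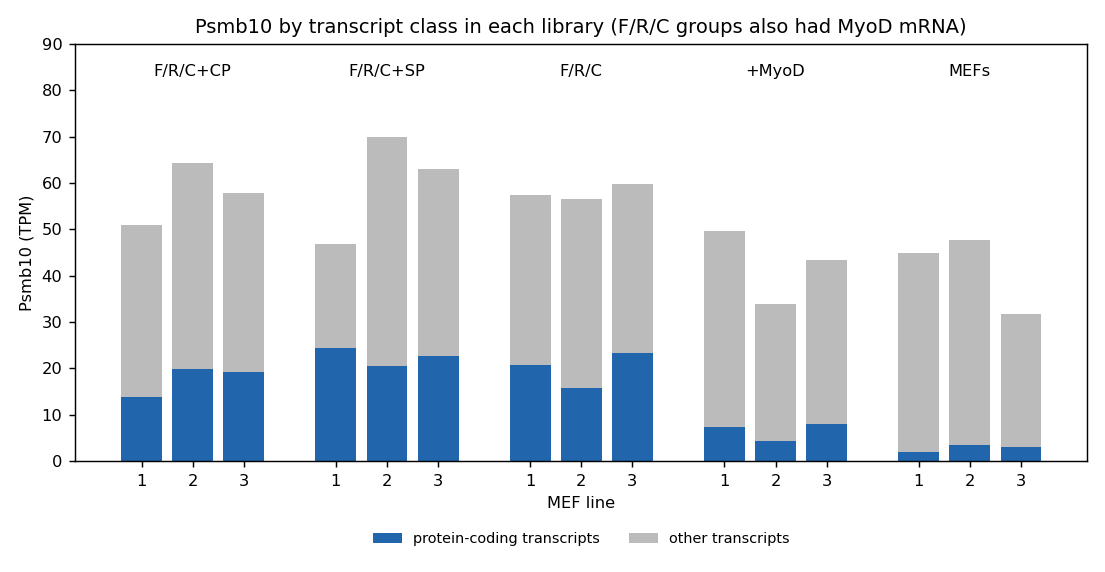
TPM of Psmb10 in each of the 15 libraries, split into its protein-coding transcript (blue) and its other 6 transcripts (grey), with MEF lines 1 to 3 side by side in each condition. The blue part was below 3.6 TPM in every MEF library and at 13.7 TPM or more in every library with F/R/C, while the mean of the grey part lay between 35.7 and 40.03 TPM in every condition.

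The gene-level fold change of Psmb10 therefore depends on which transcripts are counted. Summed over all transcripts, Psmb10 was called higher with CP as well as in +MyoD+F/R/C than in MEFs (log2 fold changes 0.79 and 0.91, adjusted p = 8e-04 and 2.1e-04) and not in +MyoD (0.15, adjusted p = 0.48). With the protein-coding transcripts of the 10 genes alone, a setting chosen after the data were seen, the log2 fold changes over MEFs were 2.43 with CP, 2.59 in +MyoD+F/R/C and 1.05 in +MyoD, and all 3 were called (adjusted p = 4.6e-06, 2.1e-06 and 0.0056). Scaling the counts by transcript length instead left none of them called (0.25, 0.24 and -0.15). An antisense gene, Gm16156, covers all 2710 bases of Psmb10, and the strand setting of the quantification is not given in the sources used here, so reads of the 2 genes cannot be told apart. Other members overlap further genes. B2m lies within Patl2 on the opposite strand (5398 bases), and Tap2 and Psmb8 overlap the antisense gene Gm20496 (1923 and 2139 bases). Tapbp shares 3422 bases with Zbtb22 on the same strand. How far reads were shared in these pairs was not tested.

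Relative to the constitutive subunits they replace, Psmb8 and Psmb9 were rare in MEFs. Psmb8 came to 3.69 ± 0.529% of Psmb5 in TPM with CP, 12.2 ± 1.79% with SP, 10.5 ± 3.36% in +MyoD+F/R/C, 3.10 ± 1.30% in +MyoD and 0.121 ± 0.0508% in MEFs (SD, n = 3 each). Psmb9 came to 0.952 ± 0.813% of Psmb6 with CP, 2.26 ± 0.700% with SP, 1.06 ± 0.146% in +MyoD+F/R/C, 0.900 ± 0.171% in +MyoD and 0.0832 ± 0.0251% in MEFs. Over all transcripts, as for the other pairs, Psmb10 came to 31.0 ± 4.99% of Psmb7 with CP, 33.6 ± 9.19% with SP, 34.6 ± 4.96% in +MyoD+F/R/C, 25.7 ± 2.04% in +MyoD and 15.5 ± 3.47% in MEFs, a much smaller difference. Its protein-coding transcript alone came to 9.45 ± 2.02% of Psmb7 with CP, 12.5 ± 0.784% with SP, 11.7 ± 1.02% in +MyoD+F/R/C, 3.99 ± 1.11% in +MyoD and 1.06 ± 0.273% in MEFs. For all 3 pairs every transfected culture lay above every MEF culture. Of the constitutive subunits, Psmb7 fell against MEFs in +MyoD+F/R/C+CP, +MyoD+F/R/C and +MyoD (log2 fold changes -0.72, -0.87 and -0.85), which adds to its own ratio, and Psmb5 and Psmb6 were not called.

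**Figure D4:**
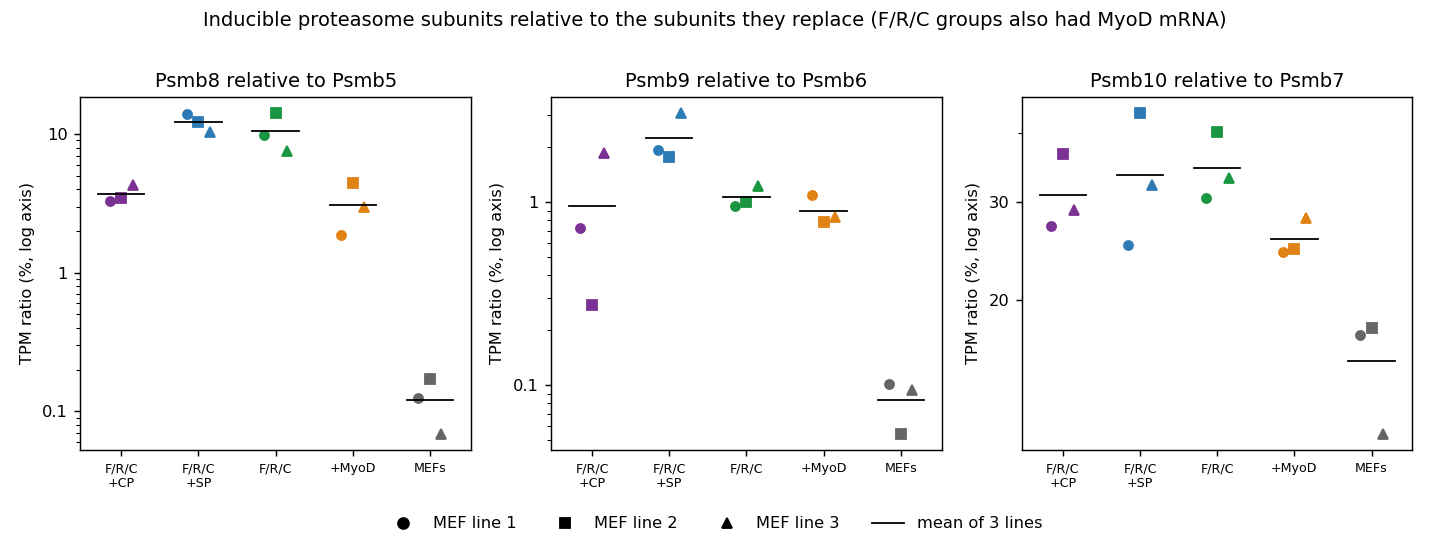
TPM of Psmb8, Psmb9 and Psmb10 (all transcripts) as a percentage of Psmb5, Psmb6 and Psmb7 in each of the 15 libraries (log axis), with 1 symbol per MEF line and a bar at the mean. For Psmb8 the 3 cultures with CP (3.30 to 4.29%) lay below the 3 cultures with SP (10.4% or more) and near those of +MyoD (1.86 to 4.45%).

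Reads of class I heavy chains can be shared, since these genes are close copies. The reference carries the C57BL/6 haplotype, whereas the lines have a mixed C57BL6 and DBA2 background. Which H2 alleles each line carried was not determined. How far shared reads or alleles moved H2-K1 and H2-D1 was not tested at the read level. When 13 genes of the H2-D, H2-K, H2-Q and H2-T groups were summed, the total was 97.6 to 115 CPM with CP, 187 to 228 CPM with SP, 119 to 157 CPM in +MyoD+F/R/C, 126 to 226 CPM in +MyoD and 84.0 to 97.7 CPM in MEFs. H2-K1 and H2-D1 made up 52.4 to 66.3% of it. The sum rose over MEFs in +MyoD+F/R/C (log2 fold change 0.61, adjusted p = 0.0089) and in +MyoD (0.91, adjusted p = 5.9e-04), was not called with CP (0.21, adjusted p = 0.35), and was lower with CP than with SP (-0.97, adjusted p = 0.036). The log2 fold change of H2-D1 over MEFs was below 0 with CP and in +MyoD+F/R/C, where that of the sum was above 0.

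Among the other class I heavy chains, 11 of 15 were tested. Of these, 6 rose and 1 fell in +MyoD+F/R/C+CP, 5 rose and none fell in +MyoD+F/R/C, and 3 rose and none fell in +MyoD, each against MEFs, where 24.9%, 26.6% and 22.8% of all genes were called higher. The count in +MyoD was near that share. H2-T23, which encodes Qa-1 and is bound by the CD94/NKG2A receptor of natural killer cells, rose in all 3 comparisons (log2 fold changes 2.03, 2.62 and 2.16). H2-T22 rose in +MyoD (0.93, adjusted p = 7.2e-05), was just under the size threshold in +MyoD+F/R/C (0.45, adjusted p = 0.013), and was lower with CP than with SP (-0.76, adjusted p = 0.041). H2-T24 was the gene that fell with CP (-1.89, adjusted p = 0.0057).

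Of 9 other genes of peptide supply and loading, 2 rose and 3 fell in +MyoD+F/R/C+CP, 3 rose and 4 fell in +MyoD+F/R/C, and 3 rose and 1 fell in +MyoD. These counts were near the 22.8 to 26.6% of all genes called higher or, for those that fell, the 18.0 to 21.6% called lower, apart from the 4 of 9 that fell in +MyoD+F/R/C and the 3 of 9 that fell with CP. Psme1 and Psme2, which form the proteasome activator PA28, rose in all 3 comparisons, with log2 fold changes between 0.66 and 1.07. The chaperones Canx, Pdia3 and Hspa5, which fold glycoproteins in the endoplasmic reticulum and are not specific to class I, fell with CP as well as in +MyoD+F/R/C (log2 fold changes between -0.56 and -0.69). Pomp, the proteasome maturation protein, fell in +MyoD+F/R/C (-0.57, adjusted p = 0.0081). None of the 9 was called between the F/R/C conditions.

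Of 10 transcriptional regulators of class I genes, 4 rose and 2 fell against MEFs in +MyoD+F/R/C+CP, 5 rose and 2 fell in +MyoD+F/R/C, and 4 rose and 2 fell in +MyoD. Of all genes, 24.9%, 26.6% and 22.8% were called higher in these comparisons and 20.6%, 21.6% and 18.0% lower, so that the falls were at the share over all genes. Irf1, Stat2 and Rfx5, a subunit of the complex that holds Nlrc5 on class I promoters, rose in all 3 comparisons. Irf1 had log2 fold changes of 2.08 with CP, 2.44 in +MyoD+F/R/C and 1.87 in +MyoD. Creb1, which can bind the X2 element, and Nfkb1 fell in all 3, Creb1 by -0.91, -1.11 and -1.09 on the log2 scale. With CP against SP, 2 of the 10 were called lower, namely Irf9 (log2 fold change -1.65, adjusted p = 0.0021) and Stat2 (-1.72, adjusted p = 0.024), beside 0.197% of all genes. Both encode factors of the interferon response.

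Stat2 had 7.34, 13.4 and 12.9 TPM with CP, 35.3, 33.6 and 32.8 TPM with SP, 13.8, 24.3 and 23.7 TPM in +MyoD+F/R/C, 10.4, 22.6 and 20.8 TPM in +MyoD and 4.92, 3.62 and 4.54 TPM in MEFs. It was also the gene whose pattern over the 15 libraries was most like the mean of the 10 members (Pearson r = 0.964 of log2 CPM), followed by Ifi35 (0.960), Trim12c (0.953), Trim12a (0.935), Tor3a (0.928), Ube2l6 (0.924), Ccn5 (0.923), Hsd17b7 (0.917), Lgals3bp (0.914) and H2-T23 (0.914). The points share 5 conditions and 3 lines, so these values describe the libraries and carry no test.

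Among themselves the members fell into sets by the same measure. Each against the mean of the other 9, H2-K1, Tapbp, Tap2, Psmb9, Tap1 and Psmb8 had r between 0.823 and 0.926 over the 15 libraries. H2-D1 (0.445), Psmb10 (0.411) and B2m (0.212) followed the rest loosely, and Nlrc5 ran slightly against them (-0.17). B2m and H2-D1 were closer to each other (r = 0.82) and to Nlrc5 (0.76 and 0.64) than to Tap1 (-0.09 and 0.09).

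Class II genes, which present peptides to helper T cells, stayed low. In every library H2-Aa, Cd74 and their regulator Ciita were near 0, with Cd74 at 1.74 TPM or less and Ciita at 0.426 TPM or less. Even so, 4 of 6 tested rose over MEFs in +MyoD+F/R/C+CP, +MyoD+F/R/C and +MyoD (H2-Ab1, H2-Eb1, H2-DMa and H2-DMb1). Of all genes, 24.9%, 26.6% and 22.8% were called higher in these comparisons. H2-Ab1, H2-Eb1 and H2-DMb1 were near the floor in MEFs, with means of 0.199, 0.182 and 0.0185 CPM. H2-DMa had 8.04 to 18.6 TPM in +MyoD, against 2.26 to 3.49 TPM in MEFs. In the same comparisons none of the 7 leukocyte markers tested was called higher, while Csf1r fell with CP (log2 fold change -1.34, adjusted p = 0.047) and Csf1r and Lyz2 fell in +MyoD+F/R/C (-2.79 and -1.83, adjusted p = 6.3e-04 and 0.0078). With CP, Lyz2 and Itgam averaged higher than in MEFs (10.6 against 8.28 and 1.85 against 1.55 CPM), whereas Ptprc, Cd68 and Adgre1 averaged lower. The median leukocyte sum was 22.7 TPM with CP and 15.7 TPM in +MyoD+F/R/C, against 21.4 TPM in MEFs. The part of leukocytes in the lower B2m, H2-D1 and Nlrc5 values of those cultures was not tested.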

How the data were processed

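RNA was measured in 15 cultures, with conditions and MEF lines as the labels and the study's methods give them. The authors made stranded poly-A libraries and sequenced single-end reads, demultiplexed with bcl2fastq 2.20, trimmed with fastp 0.20.0 and quantified with kallisto 0.46.1 against GRCm38.p6, per the labels and the methods. The deposited files hold, per transcript, estimated counts without normalization, TPM scaled to effective length and library total, and the effective length itself. Replicates were not pooled. The authors tested with DESeq2, and their test results were not used here.

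Each file lists 121843 transcripts, of which 121104 matched GENCODE M21 by identifier and 739, with 0.236 to 0.327% of a library's counts, were left out. Transcripts of a gene were added up and the estimated count rounded. One edgeR quasi-likelihood fit (edgeR 4.0.16, R 4.3.3) of all 15 libraries with TMM normalization, the condition as the only factor and filterByExpr (at least 10 counts, 15 in total) tested 19331 genes, with Benjamini-Hochberg adjustment over all of them. The common biological coefficient of variation was 0.35, and each gene was tested with its own moderated estimate of the spread. SE is the log2 fold change divided by the root of its F value, and 95% intervals use 10 degrees of freedom. The fit was first tested on simulated counts. CPM used TMM library sizes. For correlations, 2 was the prior count of log2 CPM.

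The same 3 lines stand behind each condition, so the replicate numbers pair the libraries. Deviations from the group means correlated at 0.0737 on average within a line (30 pairs), against -0.0368 between lines (60 pairs). For each of the 15 libraries, the mean correlation with libraries of other conditions was highest for its own line. Alternatives were DESeq2 1.42.0, its size factors, other filters, only the libraries compared, the line as a block, length-scaled TPM, summed heavy chains and leaving out each replicate. Only the 9 F/R/C libraries and only protein-coding transcripts were added after the data were seen. The 10 genes and all gene lists were chosen with earlier results of these data known. All 10 were named, with list genes that passed the call (up to 8 per list and comparison) and the 10 genes most like the members' mean. One gene of the regulator list is not reported here. Python 3.11.15, pandas 2.3.3, numpy 2.4.6 and matplotlib 3.10.9 were used.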

Additional observations from a re-analysis of the deposited data

How the results depend on the processing

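Of 70 pairs of gene and comparison, 44 kept their direction and call under every alternative run. Over 1024 reruns, 966 stayed, 21 lost a call, 18 gained one and 19 changed direction, the largest of these at 0.605. In +MyoD+F/R/C versus +MyoD, genes called higher went to 1 with length-scaled counts, and genes called lower went to 3 with DESeq2 and to 3 with the replicate block, and to between 1 and 3 without one replicate. Genes called lower in +MyoD+F/R/C versus MEFs numbered 1 to 2 without one replicate, and in +MyoD+F/R/C+CP versus +MyoD+F/R/C+SP 0 to 1. For +MyoD+F/R/C+SP versus +MyoD+F/R/C, 1 gene (B2m) was called higher by DESeq2 and 1 on the 9 F/R/C libraries, and for +MyoD+F/R/C+CP versus +MyoD+F/R/C, 1 gene (Psmb8) was called lower by DESeq2. The block changed no other call. The cause of these changes was not tested.

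Changes of direction were these. With length-scaled counts, Psmb10 in +MyoD versus MEFs was -0.148, H2-K1 in +MyoD+F/R/C versus +MyoD 0.050, and in +MyoD+F/R/C+CP versus +MyoD+F/R/C Psmb9 was 0.067 and Psmb10 0.016. With the heavy chains summed, H2-D1 became 0.605 in +MyoD+F/R/C and 0.208 in +MyoD+F/R/C+CP, each versus MEFs. Tap2 in +MyoD+F/R/C+SP versus +MyoD+F/R/C was 0.014 with a stricter filter, 0.005 with the replicate block, 0.167 with protein-coding transcripts and between -0.246 and 0.260 without one replicate (0.083 and 0.104 among these), and in +MyoD+F/R/C+CP versus +MyoD+F/R/C 0.002 with protein-coding transcripts. Without one replicate, Nlrc5 in +MyoD versus MEFs lay between -0.538 and 0.092, Psmb9 in +MyoD+F/R/C+CP versus +MyoD+F/R/C between -0.754 and 0.058, and in +MyoD+F/R/C versus +MyoD H2-K1 lay between -0.525 and 0.180, Tapbp between -0.380 and 0.027 and Psmb9 between -0.122 and 0.366. Depth limits Psmb8 and Psmb9 most, which had 4 to 9 reads per MEF library. P-values of the main fit measure the spread of libraries within conditions, pooled over all 5 conditions and without pairing the lines. They rest on the same 3 lines.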
